A study of Mus musculus with 2 samples.

Results

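The loci of 8 mouse genes that encode MEIS, PKNOX and PBX homeodomain proteins were examined for open chromatin in the embryonic hindbrain: Meis1, Meis2, Meis3, Pknox1, Pknox2, Pbx2, Pbx3 and Pbx4, which are 8 of the 21911 protein-coding genes measured. The genes were chosen by name. A locus was the gene body with 50 kb on either side, and it also took in every peak within 1 kb of an annotated start of the gene. The 8 loci held 458 of 263655 peaks in replicate 1 and 360 of 148769 in replicate 2, with 369 of 231347 and 286 of 133205 hotspots.

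MEIS, PKNOX and PBX proteins belong to the TALE class of homeodomain factors. PBX proteins bind DNA together with HOX proteins, and MEIS and PKNOX proteins bind PBX and take part in the same complexes. In the hindbrain these complexes are best known as the partners through which HOX proteins act on segment-specific genes.

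Chromatin was profiled by DNase-seq, which maps DNase I cutting in open chromatin, in hindbrain of B6NCrl mouse embryos of embryonic day 14.5, male and female pooled. There was 1 group of 2 biological replicates, with no genetic change or treatment in the labels. Each replicate was a separate tissue sample, but both carry the same donor entry, and whether they come from separate litters is not stated. Technical and biological differences between them cannot be told apart. Peaks are 150 bp wide and carry the authors' own score, a whole number between 1 and 150 whose definition and scaling are not stated; hotspots are wider regions with a −log10 q-value. Positions are mm10. A peak was called shared where the other library had a peak that it touched by at least 1 bp, and private where not. Peaks of 1 library can overlap each other, and each was counted. A distal peak had its midpoint more than 1 kb from every start of any gene in the basic gene annotation. In whole tissue, a site open in fewer cells and a site less open per cell cannot be told apart.

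The labelled tissue was checked at promoters. Shared promoter peaks were present at 9 of 9 hindbrain genes, among them Atoh1, the rhombic lip factor, and Hoxb4. Over all protein-coding genes the share was 64.6%, so such a peak is common in any list. Among forebrain genes, Emx1, Emx2 and Lhx2 had a shared promoter peak, Dlx2 and Dlx5 had a promoter peak in replicate 1 and not in replicate 2, and Six3 and Dlx1 had none in either library. Among blood and microglia genes, Cd68 had a shared promoter peak, Klf1 had a promoter peak in replicate 1 and not in replicate 2, and Ptprc, Csf1r, Aif1 and Hbb-bt had none. Shared promoter peaks were present at 1 of 4 endothelial genes (Kdr) and 0 of 3 liver genes.

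The sites shown first are the distal shared peaks with the highest mean score percentile of each locus. They ranked highest outside the 1 kb windows around the starts used. Sequence was read from GRCm38.p6 and runs 5′ to 3′ on the plus strand. For Pbx2 the second site is shown, because the first overlaps an untranslated region, and the second Pbx3 site was added after its matches were seen. Capitals mark letters that match any of 12 short consensus sequences, on either strand.
Meis1, upstream (chr11:19020476-19020625, plus strand): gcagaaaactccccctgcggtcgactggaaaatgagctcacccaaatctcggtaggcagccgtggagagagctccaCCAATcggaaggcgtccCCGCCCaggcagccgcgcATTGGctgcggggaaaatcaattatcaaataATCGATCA
Meis2, upstream (chr2:116071576-116071725, plus strand): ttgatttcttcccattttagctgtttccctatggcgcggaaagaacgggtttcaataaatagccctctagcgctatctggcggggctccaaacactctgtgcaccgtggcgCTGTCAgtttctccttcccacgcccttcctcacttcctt
Meis3, in an intron of Slc8a2 (chr7:16153656-16153805, plus strand): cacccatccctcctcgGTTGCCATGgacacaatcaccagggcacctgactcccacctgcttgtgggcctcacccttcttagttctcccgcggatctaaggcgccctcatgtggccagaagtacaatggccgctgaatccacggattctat
Pknox1, intron 1 (chr17:31580496-31580645, plus strand): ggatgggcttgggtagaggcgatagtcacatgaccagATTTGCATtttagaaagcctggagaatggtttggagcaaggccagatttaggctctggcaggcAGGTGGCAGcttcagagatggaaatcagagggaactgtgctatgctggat
Pknox2, intron 6 (chr9:36933856-36934005, plus strand): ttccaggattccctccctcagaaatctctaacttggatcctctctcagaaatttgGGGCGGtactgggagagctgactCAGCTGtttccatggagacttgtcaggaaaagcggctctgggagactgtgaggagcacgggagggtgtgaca
Pbx2, in an intron of Notch4 (chr17:34586896-34587045, plus strand): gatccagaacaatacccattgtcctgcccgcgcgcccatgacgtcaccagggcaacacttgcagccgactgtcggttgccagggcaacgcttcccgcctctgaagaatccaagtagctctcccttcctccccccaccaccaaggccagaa
Pbx3, upstream (chr2:34373156-34373305, plus strand): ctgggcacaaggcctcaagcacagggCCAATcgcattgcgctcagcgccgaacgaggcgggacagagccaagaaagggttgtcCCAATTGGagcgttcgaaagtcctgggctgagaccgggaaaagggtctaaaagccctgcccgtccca
Pbx3, intron 2 (chr2:34249636-34249785, plus strand): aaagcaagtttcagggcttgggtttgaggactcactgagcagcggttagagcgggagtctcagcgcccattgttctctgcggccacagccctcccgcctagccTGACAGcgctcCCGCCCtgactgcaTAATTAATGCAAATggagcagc
Pbx4, in a coding exon of Cilp2 (chr8:69882216-69882365, plus strand): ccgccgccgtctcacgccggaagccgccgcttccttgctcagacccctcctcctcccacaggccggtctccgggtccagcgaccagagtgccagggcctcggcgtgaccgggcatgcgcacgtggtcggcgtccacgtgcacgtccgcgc

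The Meis1 site ended in a HOX-PBX match, TGATNNAT read on the minus strand, at bases 143 to 150 of the peak, and it also held 2 CCAAT matches and an SP match. In the Meis2 site the MEIS hexamer TGACAG lay on the minus strand at bases 112 to 117. The Pbx3 site in intron 2 held TGACAG at bases 104 to 109, an SP match at 115 to 120, TAATTA at 129 to 134 and the POU octamer ATGCAAAT directly after it, at 135 to 142. The Pknox1 site held a POU match and a CTCF core, the Pknox2 site an SP match and the E-box CAGCTG, and the Meis3 site an RFX match, GTTGCCATG. The Pbx2 and Pbx4 sites shown held no match.

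All 8 genes had a shared peak at a promoter, against 14156 of all 21911 protein-coding genes (64.6%). Each of the 8 also had a promoter peak in replicate 1, against 69.9% of all genes, and in replicate 2, against 65.7%. The strongest of these peaks scored between 119 and 145 in replicate 1 and between 71 and 126 in replicate 2.

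Meis1 encodes a HOX and PBX cofactor known from both development and leukaemia. Its promoter peak, chr11:19018956-19019105, scored 139 in replicate 1 and 91 in replicate 2 and had its midpoint 45 bp from a start. The promoter of Meis2, a close paralogue, held 8 peaks in replicate 1 and 6 in replicate 2, spread over 6 annotated transcripts with 4 distinct starts. Its strongest, chr2:116065676-116065825, scored 138 and 79. Meis3, known in Xenopus for a part in hindbrain patterning, had its promoter peak at chr7:16175256-16175405 with scores of 119 and 71, the lowest of the 8 genes in each library.

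Pknox1 encodes PREP1, a partner of PBX. Its main promoter peak, chr17:31564696-31564845, scored 145 in replicate 1 and 126 in replicate 2, the highest of the 8 genes in each library. A second replicate 1 peak beside it, chr17:31564416-31564565, scored 144 and had no overlapping peak in replicate 2. The gene has other annotated starts inside its body. At the start at position 31583544, replicate 1 held peaks scoring 31 and 42 and replicate 2 held none, and at the starts between 31591723 and 31591728 neither library held a peak. Pknox2, which encodes PREP2, had its promoter peak at chr9:37147116-37147265 with scores of 131 and 86. Its internal start at position 37083309 had no peak in either library. Open chromatin at the PKNOX genes was thus shared at the outer start of each gene and at none of the internal starts.

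Pbx2, which encodes a broadly expressed PBX protein, had its promoter peak at chr17:34592136-34592285, scoring 134 in replicate 1 and 90 in replicate 2. Pbx3, which newborn mice need for normal breathing, had peaks on either side of its start. The strongest, chr2:34372696-34372845, scored 137 and 125 and lay 726 bp from the nearest start, while chr2:34372056-34372205, beside the start, scored 101 and 67. Pbx4, known in mouse mainly from the testis, had its peak at chr8:69832436-69832585 with scores of 142 and 100, and 2 of its 2 promoter peaks were shared.

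Base composition around the main starts varied among the genes. Within 500 bp of the start, the CpG observed/expected ratio was 1.02 at Pbx3 and 0.929 at Pknox1, at the 98.7th and 93.8th percentile of all genes. The other 6 genes had ratios between 0.479, at Meis3, and 0.651, at Meis1, around the median of all genes, 0.571.

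**Figure D1:**
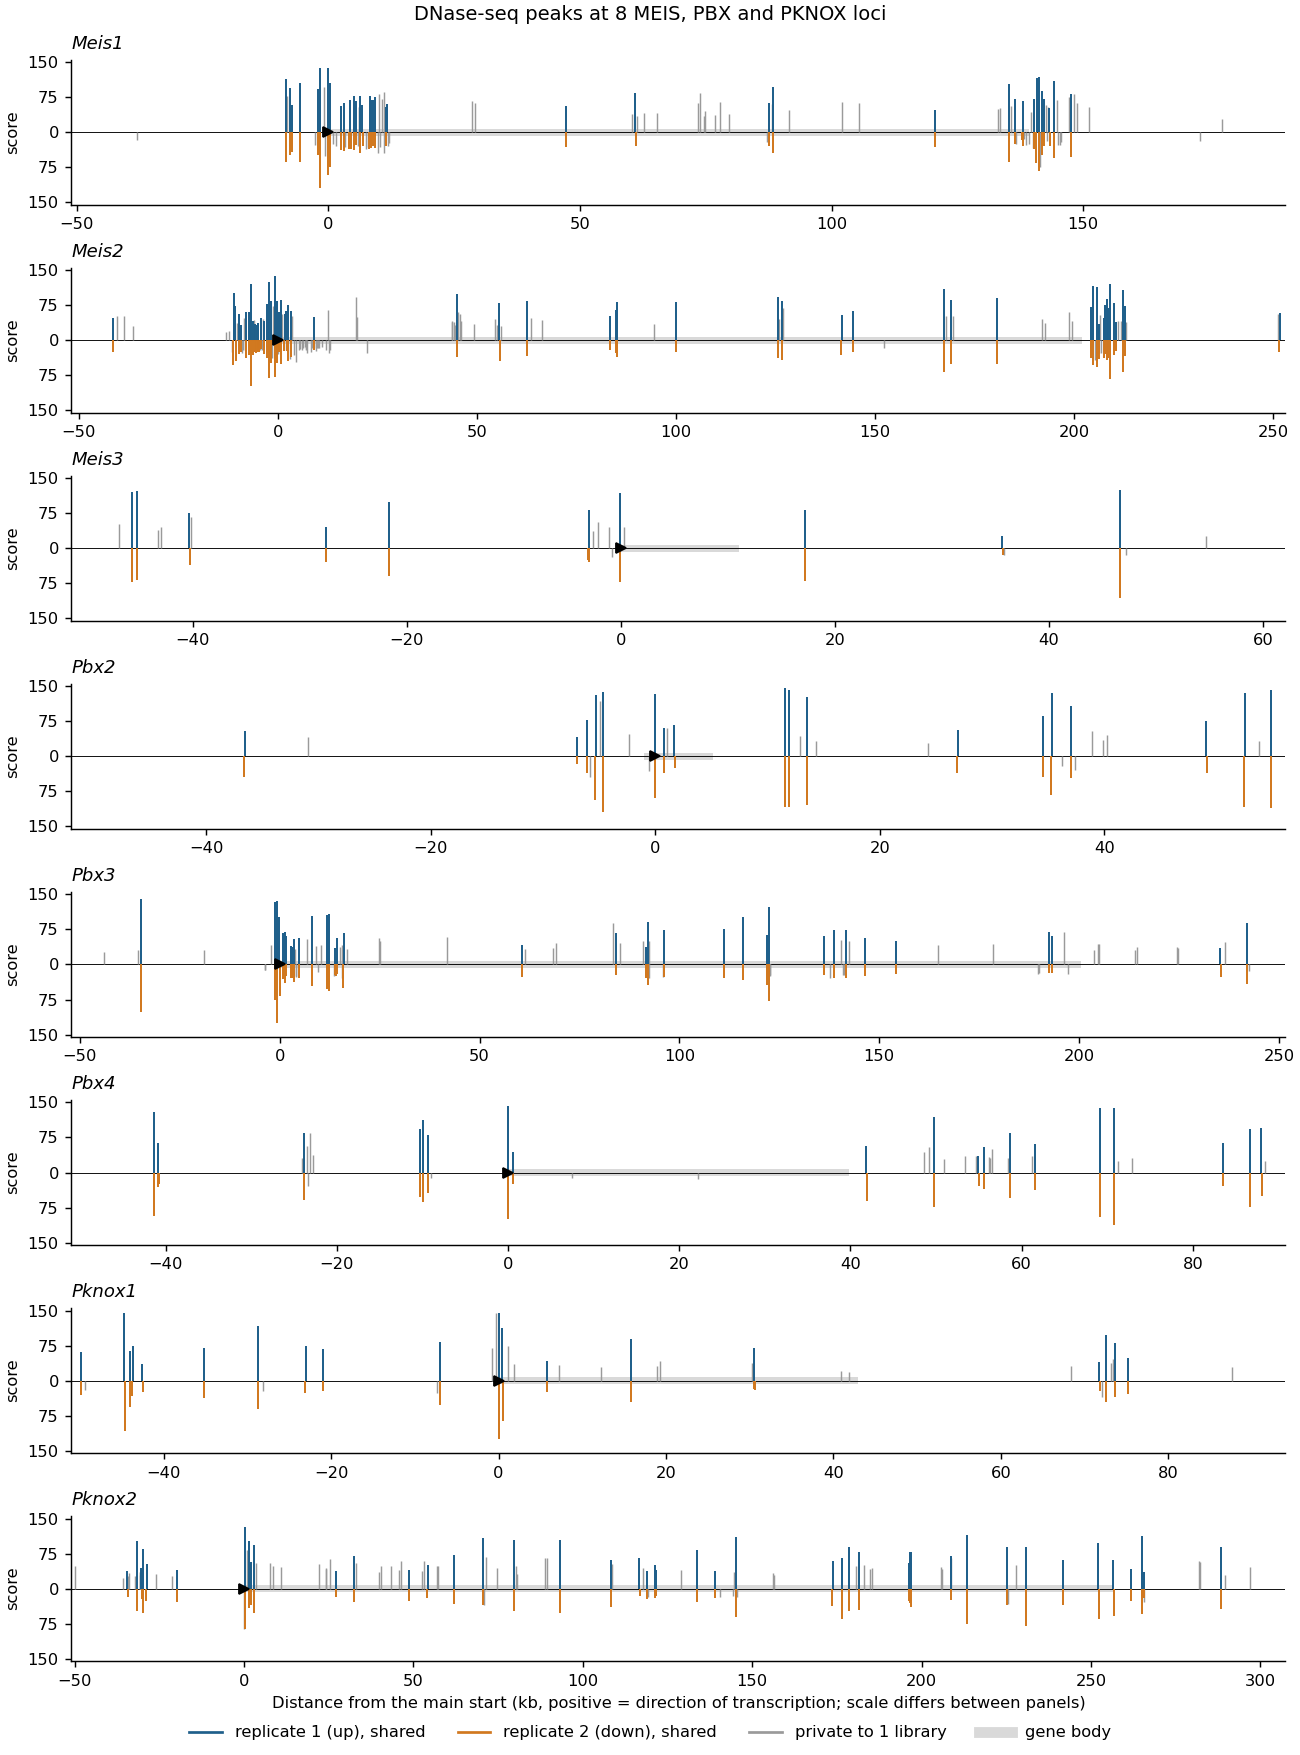
Peaks at the 8 loci, by distance from the main start in kb (x axis; the scale differs between panels) and by score (y axis), with replicate 1 drawn upward and replicate 2 downward; coloured lines are shared peaks, grey lines private ones, and the grey bar is the gene body. Shared peaks crowd around the start of Meis1, Meis2 and Pbx3 and past the 3′ end of Meis1 and Meis2, line the body of Pknox2, and are absent from the bodies of Meis3 and Pbx4 apart from their promoters.

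Outside promoters, the loci differed widely in their number of sites. The 8 loci held 174 distal shared peaks, with 44 at Meis2, 42 at Pknox2, 31 at Pbx3 and 27 at Meis1, and with 10 at Pknox1, 8 at Pbx2, 6 at Meis3 and 6 at Pbx4. The median was 18.5 over the members, against 5 over all genes, whose upper quartile was 8. Restricted to peaks at or above the median score of their library, the counts were 26 at Meis2, 26 at Pknox2, 22 at Meis1 and 12 at Pbx3, and 3 to 6 at the other 4 genes. Since longer genes give larger loci, the counts were also expressed per 100 kb, where the median was 8.91 for the members, against 3.38 for all genes. By this density Meis2 (14.5) lay at the 99.1st percentile of all genes, Pknox2 (11.8) at the 97.2nd, Meis1 (11.3) at the 96.6th and Pbx3 (10.3) at the 95th. The density was 7.54 at Pbx2, 6.99 at Pknox1, 5.39 at Meis3 and 4.29 at Pbx4, each above the median of all genes.

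Among the 500 genes closest to it in length, Meis2 had the most distal shared peaks, 44 against a median of 12. Pknox2 lay at the 99.2nd percentile of its own 500 (median 13), Meis1 at the 98.2nd (median 9) and Pbx3 at the 97.9th (median 12). The shorter genes lay lower: Pbx2 at the 86th percentile, Pknox1 at the 85.8th, Meis3 at the 68.1st and Pbx4 at the 62.3rd. The 4 genes with the most sites were also the 4 longest of the 8.

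**Figure D2:**
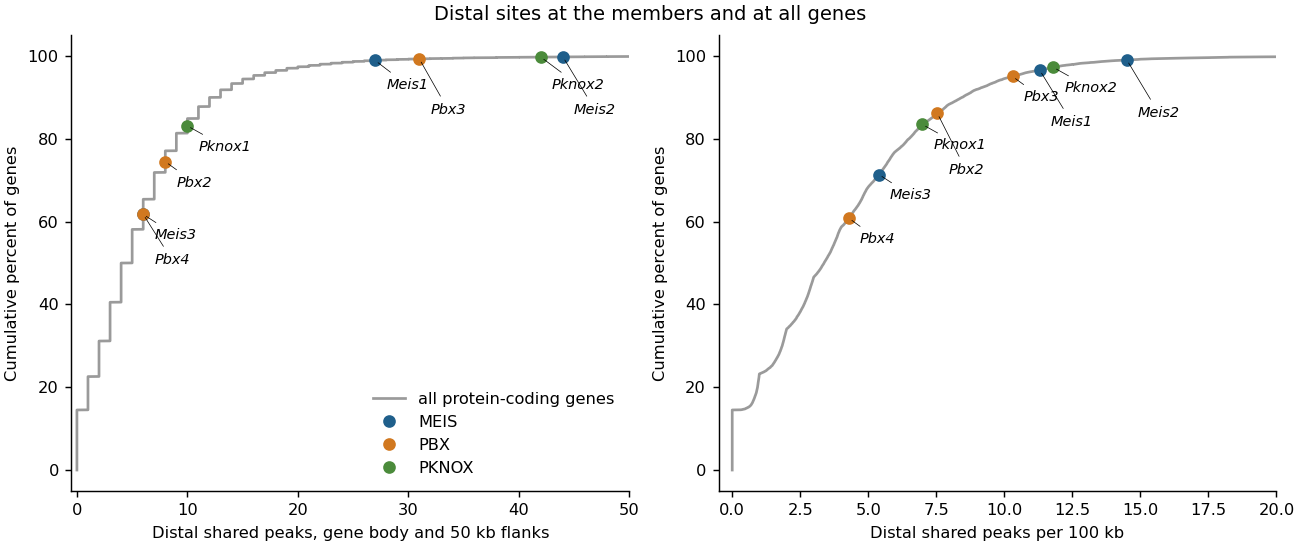
Cumulative percent of the 21911 protein-coding genes (grey line, y axis) by number of distal shared peaks in the gene body and 50 kb flanks (left x axis) and by that number per 100 kb (right x axis), with each member as a point at its percentile, ties counted by their midpoint. Meis2, Pknox2, Pbx3 and Meis1 lie at the top of both curves, while Meis3 and Pbx4, with 6 sites each, lie nearest to the middle.

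At Meis1 the sites formed groups at either end of the gene. Distal shared peaks numbered 6 upstream, 14 in the body and 7 in the 50 kb downstream, and 12 of the 27 lay between 8461 bp upstream and 8539 bp downstream of the main start. By replicate 1 positions, a stretch of 38620 bp followed with no distal shared peak. Shared peaks near the starts of the non-coding or unclassified Gm16140 and 2610001A08Rik lay in it. So did chr11:19007476-19007625, a shared replicate 2 peak that counted as distal by its own position. The strongest site, chr11:19020476-19020625, scored 137 in replicate 1 and 120 in replicate 2 and lay 1581 bp upstream, in intergenic sequence. It lay inside the longest replicate 2 hotspot of the locus, which also covered the main start. The second, chr11:18877756-18877905, scored 118 and 83 and lay past the 3′ end of the gene, 141139 bp from the start. For all 27 sites the nearest protein-coding start was that of Meis1.

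Meis2 had the densest arrangement of the 8 loci. Its distal shared peaks numbered 11 upstream, 19 in the body and 14 downstream, with 15 of the 44 between 9823 bp upstream and 8997 bp downstream of the main start and a median of 880 bp from each to the next. The strongest, chr2:116071576-116071725, scored 120 in replicate 1 and 97 in replicate 2 and lay 6603 bp upstream, in an intron of the long non-coding gene G630016G05Rik, which held 10 of the 44 sites. The next, chr2:115855956-115856105, scored 121 and 82 and lay past the 3′ end, 209017 bp from the start. The 14 downstream sites scored between 36 and 121 in replicate 1 and between 22 and 82 in replicate 2. Of these, 13 stood together past the 3′ end, from 204217 to 212757 bp from the start, and the last followed after 38760 bp without a site. Nearest protein-coding starts assigned 43 of the 44 sites to Meis2.

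Meis3 differed from its paralogues: no distal peak of either library lay inside its body of 11.4 kb. Its 6 shared sites lay in the flanks, 4 of them inside the neighbours Slc8a2, a sodium-calcium exchanger, and Dhx34, a helicase. The strongest, chr7:16153656-16153805, scored 99 in replicate 1 and 60 in replicate 2 and lay in an intron of Slc8a2, 21700 bp upstream of Meis3. The second, chr7:16192516-16192665, scored 83 and 69 and lay 17160 bp downstream of the start. Of the 6 sites, 3 were nearest to the start of Meis3.

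The PKNOX genes differed from each other in the same way as Meis2 and Meis3, by number of sites and gene length. Pknox2, with a body of 256.4 kb, had 30 distal shared peaks in its introns, 6 upstream and 6 downstream. They were spread out, with a median of 5580 bp from each to the next and no more than 6 in any 20 kb. The strongest, chr9:36933856-36934005 in intron 6, scored 114 in replicate 1 and 77 in replicate 2 and lay 213477 bp from the start; chr9:36916476-36916625 in intron 7 scored 90 and 80. For 25 of the 42 sites the nearest protein-coding start was that of Pknox2, and both strongest sites were nearer to Fez1. Pknox1 had 3 distal shared peaks in its body and 7 in its flanks. Its strongest, chr17:31580496-31580645 in intron 1, scored 89 and 46, and the next, chr17:31638336-31638485, scored 80 and 35 and lay 1172 bp from a start of Cbs.

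Among the PBX genes, Pbx3 had 28 distal shared peaks in its own body, Pbx2 had 1 and Pbx4 had 0. The 31 distal shared peaks of the Pbx3 locus were those 28, all in introns, with 1 upstream and 2 downstream, and 13 lay between 1186 bp upstream and 15994 bp downstream of the main start, followed by 44600 bp with none. The upstream site, chr2:34373156-34373305, scored 134 in replicate 1 and 76 in replicate 2. It counted as distal by the starts used, but the annotated gene extends past them to position 34373142. The site thus adjoins the 5′ end of the gene and may belong to its promoter. The strongest intronic site, chr2:34249636-34249785 in intron 2, scored 123 and 78 and lay 122334 bp from the start. All 31 were nearest to the start of Pbx3 among protein-coding starts.

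Pbx2 and Pbx4 had few sites of their own. Pbx2, with a body of 6.13 kb, had 1 distal shared peak in a coding exon, which scored 68 in replicate 1 and 25 in replicate 2, and 7 in its flanks. The strongest, chr17:34587516-34587665, scored 139 and 119 and lay in a coding exon of Notch4, a Notch receptor, 4673 bp upstream of Pbx2; chr17:34586896-34587045, in an intron of Notch4, scored 131 and 94. Both were nearer to the start of Gpsm3 than to that of Pbx2. Pbx4 had no distal shared peak in its 39.8 kb body and none upstream. Its 6 sites lay downstream, 5 of them inside other genes, and none was nearest to the start of Pbx4. The strongest, chr8:69882216-69882365 in a coding exon of Cilp2, scored 119 and 73, and chr8:69919096-69919245 in an intron of Gatad2a scored 93 and 73.

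Over the 174 distal shared peaks, 86 lay in an intron of the member itself, 7 in its exons, 31 inside another gene and 50 between genes. Promoters of other genes also lay in the flanks. Pbx2 and Pbx4 each had 6 protein-coding neighbours with a shared promoter peak in the 50 kb, Rnf5 being the strongest near Pbx2 (146 and 109) and Yjefn3 near Pbx4 (139 and 112). Meis3 and Pknox1 had 2 each, and Pbx3 had 1, Mapkap1. At Meis1 and Meis2 the only neighbouring starts with shared peaks were of non-coding or unclassified transcripts, such as Gm16141 and Gm16140 (antisense to Meis1) and G630016G05Rik, whose strongest peak scored 126 in replicate 1 and 80 in replicate 2. The limit of 50 kb set which sites were counted. At Pbx2 the last shared peak inside it lay 49690 bp from the gene and scored 142 and 111, and the first outside lay 50150 bp away and scored 62 and 40.

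Hotspots gave the extent of open chromatin. Bases covered by hotspots of both libraries made up a median of 5.85% of the member loci, against 2.47% over all genes. In replicate 1 alone the medians were 8.95% for the members, against 4.47% for all genes, and in replicate 2 they were 6.34%, against 2.71%. By coverage in both libraries Pbx2 came first (8.59%, the 97.7th percentile), then Meis2 (7.13%, 94.4th), Meis1 (6.29%, 91.4th) and Pbx4 (6.24%, 91.1st). These values include the flanks with the promoters of neighbours. In the gene body alone Pbx2 lay at the 97.4th percentile, Meis1 at the 75.8th, Meis2 at the 65.8th and Pbx4 at the 50.1st. The Pbx2 body has only 6135 bp, 1740 bp of them covered in both libraries, and it includes the promoter peak. Body coverage was not set beside genes of like length. Over the whole locus Pbx3 had 3.2% and Pknox2 3.64%, at the 63.1st and 69.5th percentile, so the order differed from that by number of sites. At Meis1 hotspots covered more of the locus in replicate 2 (10.3%) than in replicate 1 (9.59%), which among the 8 loci was seen at Meis1 only.

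The longest hotspots marked different places in different loci, and every one of them stood at the highest −log10 q-value of the lists, 100. At Pknox2 the longest hotspot covered the main start in both libraries and had nearly the same extent, 2529 bp in replicate 1 and 2522 bp in replicate 2. At Pknox1 it also covered the start in both, with 2410 and 2176 bp. At Meis1 the longest hotspot of replicate 2 was a block of 4960 bp over the start, of which replicate 1 hotspots covered 59.4%, while the longest of replicate 1 had 2041 bp and lay past the 3′ end. At Meis2 the longest of replicate 1 was an upstream block of 4303 bp, and that of replicate 2 had 1820 bp and also lay upstream. Replicate 1 had a block of 3424 bp over the start of Pbx3, and replicate 2 one of 1042 bp just upstream of it. At Pbx2 both libraries had their longest hotspot at the sites in Notch4, with 2171 and 2057 bp.

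The 2 libraries shared peaks unevenly across the loci. Of the replicate 1 peaks, 52% at the member loci were shared with replicate 2 (47.4 to 56.5, a 95% Wilson interval), against 42.4% over the genome; of the replicate 2 peaks, 70.8% were shared (65.9 to 75.3), against 77.1%. These intervals cover counting error only. For distal peaks the shares were 49.2% of replicate 1 peaks at the members, against 37.2% over the genome, and 68.6% of replicate 2 peaks, against 76.5%. Over the genome, shared distal peaks had higher scores than private ones, with a median of 68 against 37 in replicate 1 and 31 against 16 in replicate 2, so the member values were also set beside the genome-wide share of distal peaks in the same score deciles. That gave 48.4% for replicate 1, close to the value at the members, and 83.1% for replicate 2, which was higher than the value at the members.

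The lower replicate 2 share was found at Meis1, Meis2 and Pbx3. Private peaks made up 39.2% of the distal replicate 2 peaks at Meis1 (20 of 51), 41.5% at Meis2 (34 of 82) and 35.3% at Pbx3 (18 of 51), but 14.3% at Pknox2 (7 of 49), against 23.5% over the genome. The other 4 loci had 8 to 13 distal replicate 2 peaks each and 1 or 2 private ones. Without Meis1, Meis2 and Pbx3, 83.3% of the replicate 2 peaks at the member loci were shared. These loci were left out after their low shares were seen, so a higher value had to follow. Among the 1398 protein-coding genes with at least 20 distal replicate 2 peaks, the private shares at Meis2, Meis1 and Pbx3 lay at the 87.1st, 85.5th and 82nd percentile, and that at Pknox2 at the 24.7th. From the score deciles, 87.6% of the replicate 2 peaks at Meis1 would have been shared, and 60.8% were. The values were 80.8% and 58.5% at Meis2 and 80.4% and 64.7% at Pbx3, while at Pknox2 they were 86.4% and 85.7%.

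**Figure D3:**
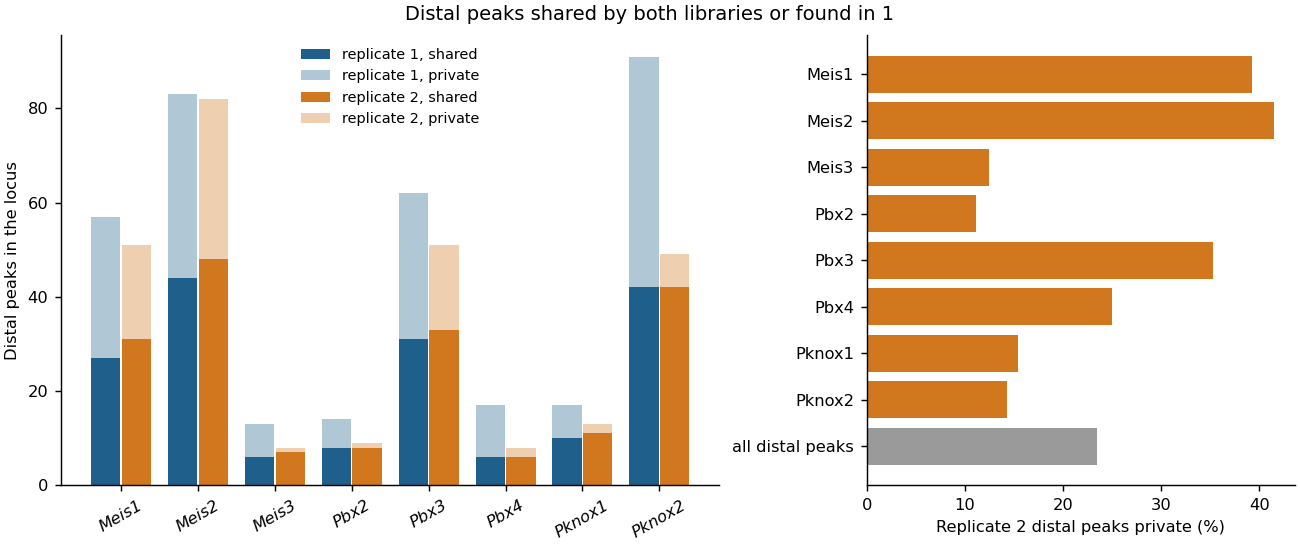
Left, number of distal peaks (y axis) at each locus in replicate 1 (blue) and replicate 2 (orange), shared in solid and private in pale colour; right, percent of distal replicate 2 peaks that were private at each locus (orange) and over the genome (grey). Replicate 2 had about as many distal peaks as replicate 1 at Meis2, 82 and 83, but 49 against 91 at Pknox2.

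The balance of peak numbers between the libraries also varied by locus. Over the genome replicate 2 had 0.501 distal peaks for each in replicate 1, whereas the ratio was 0.988 at Meis2 (82 and 83 peaks), 0.895 at Meis1 (51 and 57) and 0.823 at Pbx3 (51 and 62). At Pknox2 it was 0.538 (49 and 91). Among the 4235 protein-coding genes with at least 20 distal replicate 1 peaks, these ratios lay at the 97.1st, 95th, 92.3rd and 52.3rd percentile. The order depended on the weaker peaks. Among peaks at or above the median score of their library, the ratio was 0.589 at Meis2, 0.638 at Meis1 and 0.429 at Pbx3, against 0.469 over the genome, and the highest was 0.7 at Pbx2. With the replicate 1 list cut to the length of replicate 2, it was 1.44 at Meis2, 1.04 at Meis1 and 1.42 at Pbx3, against 0.963, and the highest was 1.62 at Pknox1, from 13 and 8 peaks.

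The private replicate 2 peaks of Meis2 sat beside its start, as the locus maps show. Within 20 kb of the main start, a limit chosen after the maps were seen, Meis2 had 48 distal replicate 2 peaks, 29 of them private, and 24 distal replicate 1 peaks, 9 of them private. Farther out it had 34 and 59, with 5 and 30 private. Some of the near replicate 2 peaks overlap each other, such as chr2:116055796-116055945 and chr2:116055856-116056005. These numbers and the ratios above thus count calls, not separate sites. Over the genome 24.4% of distal replicate 2 peaks within 20 kb of a protein-coding start were private. At Meis1 replicate 2 also had more distal peaks than replicate 1 within 20 kb, 20 and 14, and fewer beyond, 31 and 43, but the private share of its replicate 2 peaks was 30% within 20 kb and 45.2% beyond. Pbx3 had 21 and 22 distal peaks within 20 kb and 30 and 40 beyond, with 33.3% and 36.7% of the replicate 2 peaks private.

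The private replicate 2 peaks were mostly of low score. Their median score was 20 at Meis2, 23 at Pbx3 and 26.5 at Meis1, against 16 over the genome, where the median of all replicate 2 peaks was 30. The highest was at Meis1, chr11:18877556-18877705, with a score of 75, and it lay beside the strong shared site past the 3′ end of the gene. This peak was inside the longest replicate 1 hotspot of the locus. Of the private distal replicate 2 peaks, 15 of 20 at Meis1, 26 of 34 at Meis2 and 15 of 18 at Pbx3 lay outside every replicate 1 hotspot. Over the genome 19989 of 25661 did. Those more than 1 kb from any replicate 1 peak numbered 3 of 20 at Meis1, 14 of 34 at Meis2 and 4 of 18 at Pbx3. Over the genome they numbered 12229 of 25661. Among peaks at or above the median score of their library, sharing was called anew. A peak whose only partner fell below that limit then counted as private. The private share of distal replicate 2 peaks was then 23.3% at Meis1, 18.2% at Meis2 and 20% at Pbx3, against 6.56% genome-wide. By the first definition, 7 of 20 private peaks at Meis1, 4 of 34 at Meis2 and 0 of 18 at Pbx3 exceeded the median. Over the genome 1598 of 25661 did. What separates the libraries at these loci was not tested.

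Pooled over the members, the shared share of distal replicate 1 peaks was close to that of the score deciles, but the loci varied. It was 47.4% at Meis1, where the deciles gave 61.5%, and 58.8% at Pknox1, where they gave 38.8%. Private peaks made up between 41.2% of the distal replicate 1 peaks, at Pknox1, and 64.7%, at Pbx4, against 62.8% over the genome. The highest was at Pbx2, chr17:34587236-34587385 between the 2 strong sites in Notch4, with a score of 119. The next were at Meis2, chr2:116045196-116045345, with 94, and at Meis1, chr11:19007716-19007865, with 86, both in an intron of the gene. The Pbx2 and Meis1 peaks lay inside a replicate 2 hotspot, so these regions were called open in both libraries.

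Where a site was shared, the libraries ranked it alike. Across the 238 shared peaks of the members, the scores had a Spearman rho of 0.834 and a Pearson r of 0.869, beside 0.857 and 0.879 across all 111713 shared peaks. The points are peaks of the same 2 libraries, not independent samples. Per locus, rho ran from 0.677 at Pbx3 (36 peaks) to 0.897 at Pbx2 (18 peaks). The shared distal peaks of the members had a median score of 70 in replicate 1 and 33 in replicate 2, close to the medians over the genome, 68 and 31. The member loci thus held more distal sites per 100 kb than the median gene, and the sites had ordinary scores.

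**Figure D4:**
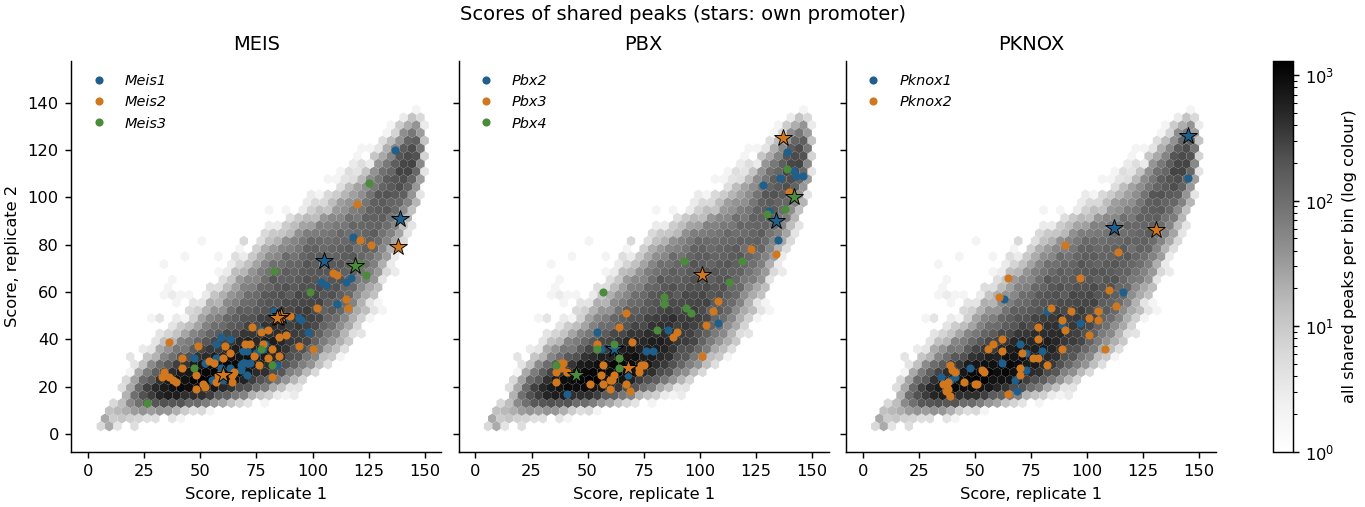
Score of each shared peak in replicate 1 (x axis) and replicate 2 (y axis) at the MEIS, PBX and PKNOX loci; points are peaks, stars those at the member's own promoter, and grey bins all 111713 shared peaks on a log colour scale. The strongest promoter peaks lie at the upper right, up to 145 and 126 at Pknox1, and most distal sites lie in the dense part of the genome-wide cloud.

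The distal shared sites of the members resembled those of the genome in base composition. Their median GC content was 50%, the same as over all 81023 distal shared peaks, and 6.65% of their bases were masked as repeats, against 8.43%. The 8 loci varied around this, with a median GC of 47.3% at Meis2 and 57.7% at Meis3.

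Consensus matches were searched on both strands of the 150 bp sites. The MEIS hexamer TGACAG was present in 22 of the 174 member sites (12.6%, 95% Wilson interval 8.5 to 18.4), against 14.3% of all distal shared sites. By gene it was in 8 of 31 sites at Pbx3, 7 of 44 at Meis2, 4 of 42 at Pknox2 and 0 of 27 at Meis1. The HOX-PBX octamer TGATNNAT was in 12 sites (6.9%, 3.99 to 11.7), against 7.75%, with 4 at Meis2, 4 at Pbx3 and 2 at Meis1. In all distal peaks of replicate 1, shared and private, the member share was 10.7%, and in those of replicate 2 it was 8.12%. No genome-wide share was computed for such single-library peaks. The composite sequences TGATTGACA (PBX-MEIS) and TGAGTGACA (PBX-PREP), each of which shares TGACA with the MEIS hexamer, were in 0 of 174 sites, with an upper Wilson bound of 2.16%, against 0.233% and 0.283% of all sites. The intervals of the MEIS and HOX-PBX shares included the share over all sites.

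Other consensus sequences gave similar shares. The homeodomain core TAATTA was in 6.9% of member sites, against 6.85% of all, and 7 of the 12 sites with it were at Pbx3. The E-box CAGCTG was in 16.7%, against 16.6%, the SP box GGGCGG in 6.9%, against 6.12%, the CTCF core (AGGTGGCAG or AGGGGGCGC) in 2.87%, against 3.05%, and the RFX sequence GTTGCCATG in 2.3%, against 1.57%. The NFI palindrome, TTGGC and GCCAA with 5 bases between, was in 0 of 174 sites, against 0.255%. Of the 12 sequences, 2 had a share over all sites that lay outside the interval of the members, and both were more frequent at the members. CCAAT was in 46 sites (26.4%, 20.4 to 33.4), against 20.1%, and ATGCAAAT was in 7 sites (4.02%, 1.96 to 8.07), against 1.78%. In all distal peaks of replicate 1, shared and private, the member shares were 21.5% for CCAAT and 2.54% for ATGCAAAT, and in those of replicate 2 they were 25.1% and 2.95%. For these too, no genome-wide share was computed. Neighbouring sites of a locus share sequence context, so these intervals are too narrow. They were also not widened for the search of 12 sequences.

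**Figure D5:**
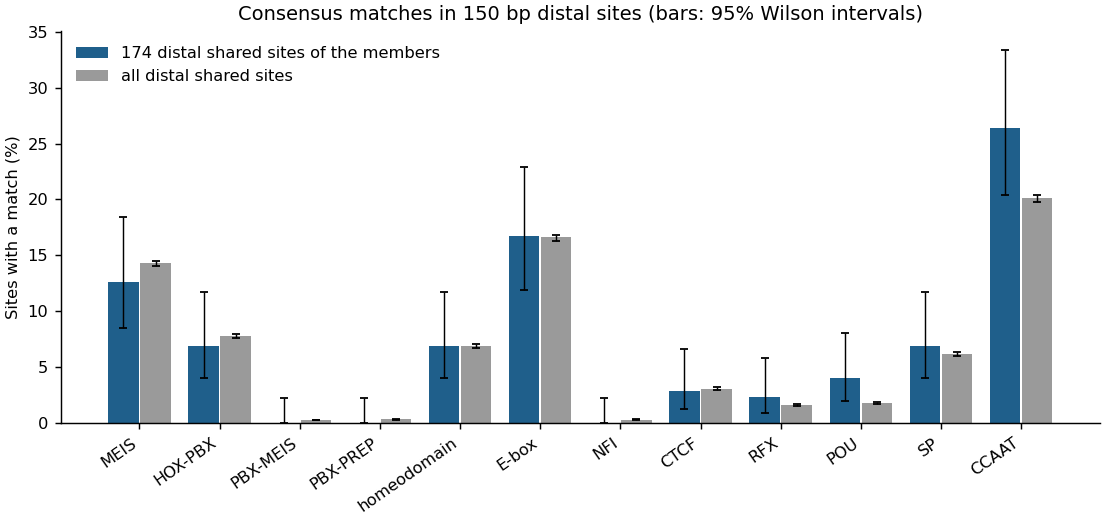
Percent of sites with at least 1 match (y axis) to each of 12 consensus sequences (x axis) in the 174 distal shared sites of the members (blue) and in all 81023 distal shared sites (grey), with 95% Wilson intervals as error bars. The intervals of the members include the genome-wide share except for CCAAT, at 26.4% and 20.1%, and POU, at 4.02% and 1.78%. These intervals are too narrow, since neighbouring sites share sequence context, and were not widened for the 12 sequences.

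The members were also set beside a list of 20 related genes: other TALE genes, HOX genes, Pbxip1, and the developmental factors En2, Egr2 and Pax6. Of these 20, 17 had a shared promoter peak, against 64.6% of all protein-coding genes. Hoxb1 and Hoxd4 had a promoter peak in replicate 1 and not in replicate 2, and Hoxa3 had none in either library. Their distal shared peaks had a median of 8, against 18.5 for the members, and a median density of 7.77 per 100 kb, against 8.91. The highest density was at Irx2, an Iroquois-class TALE gene, with 17 sites and 16.1 per 100 kb, above the 14.5 of Meis2. Hoxa2 and Hoxb2, which encode HOX proteins that act in the hindbrain with PBX partners, had 8 sites each, and Pbxip1, which encodes a PBX-binding protein, had 5. Since HOX genes lie in clusters, their flanks overlap and the same site can count for several of them.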

How the data were processed

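DNase-seq was measured in 2 libraries of 1 group. The authors deposited, for each library, a list of peaks with a score and a list of hotspots with a −log10 q-value, derived separately per replicate from filtered mm10 alignments, per the labels and the descriptive text that came with the samples. The deposited scores are whole numbers; what they count and whether they were scaled for depth is not stated. Aligner, caller and thresholds: not given in the sources used here. Since read counts are not among the deposited values, depth is unknown, and scores were compared between libraries by percentile within each library. The deposited −log10 q-value of hotspots ran from 1.3 to 6 or equalled 100, taken as a cap.

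Duplicate rows (24 in replicate 1 and 36 in replicate 2) were counted once, and 253 and 302 peaks not on the 21 assembled chromosomes were not used. All peak and hotspot ends lay within the GRCm38.p6 chromosome lengths. Gene models were the basic set of GENCODE M21. Shared sites were placed at the position of replicate 1. Genes were placed among all protein-coding genes by percentile, ties counted by their midpoint. With 1 group no test between groups exists, and no p-value was computed; lists were described by counts and medians. For each member, the strongest promoter peak of each start, the 2 strongest distal shared peaks, the strongest private distal peak and the longest hotspot of each library were named. The members, lists and motifs were chosen with earlier results of these data known. Some genes of the forebrain and blood lists are not reported here. Intervals are 95% Wilson intervals. Alternatives changed the overlap, score limit, list length, flank, promoter window, hotspots for peaks, motif window and libraries used. The overlap, nearest-start and motif steps were tested on simulated data, and the counting of peaks per locus was not. Python 3.11.15, numpy 2.4.6, pandas 2.3.3, scipy 1.17.1 and matplotlib 3.10.9 were used.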

Additional observations from a re-analysis of the deposited data

How the results depend on the processing

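No paired analysis was possible because the 2 libraries form 1 group. The count of 8 members with a shared promoter peak was the same under every alternative run. The 174 distal shared peaks became 104 with peaks at or above the median score of each library, and 271 to 354 when 1 library alone was used; 151 with at least 50% overlap, 147 with a 20 kb flank, 212 with a 100 kb flank and 134 with only the sites nearest to a member's start were within 1.5 times. With a 20 kb flank Meis3 had 2 sites, Pbx2 5, Pbx4 3 and Pknox1 3, and Pknox1 had 20 with a 100 kb flank. The shared share of 52% of replicate 1 peaks became 45.6% with at least 50% overlap, 64.5% with the replicate 1 list cut to the length of replicate 2, and 58.7% when hotspots of the other library also counted. The share of 70.8% of replicate 2 peaks became 59.7%, 61.9% and 80% under the same changes. It was 85.2% with both lists cut at their median score and 80.4% for hotspots in place of peaks. Without the Meis1, Meis2 and Pbx3 loci it was 83.3%. The changes with hotspots added and with loci left out were chosen after seeing the data. With the lists cut to equal length, the private share of distal replicate 2 peaks was 52.4% at Meis2, 47.1% at Pbx3 and 39.2% at Meis1, against 34.4% over the genome. Hotspot coverage of 5.85% became 3.75% with hotspots at the cap only and lay between 6.34% and 8.95% in 1 library alone. In 250 bp windows the MEIS share was 23% and the HOX-PBX share 14.9%, by the wider window; in 1 library alone the HOX-PBX share was 8.12% to 10.7% and the POU share 2.54% to 2.95%. Of 64 alternatives to these main values, 48 stayed within the limits set and 16 moved. With depth unknown, absence from a peak list does not show that a site was closed.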
